A study of Homo sapiens with 10 samples.

Results

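Cystatins and lysosomal cathepsins, a set of protease inhibitors and the proteases they act on or work beside, were followed in WM164 cells, a human melanoma line. The set held 10 genes of the 54826 entries in the table, namely the cystatins CST1, CST2, CST3, CST4 and CSTB and the cathepsins CTSB, CTSL, CTSK, CTSS and CTSD. It was chosen from measured values, because CST1 and CST2 are low in the libraries labelled VDR-KD. Cells labelled VDR-KD were set against cells labelled VDR-WT, which the sample labels describe as infected with a scrambled sequence. The sample labels call the VDR-KD cells a knockout of the vitamin D receptor (VDR), while the paper calls them knocked down and the others mock transfected. Cells of each genotype received 1,25(OH)2D3, 1,20(OH)2D3, 25(OH)D3 or 20(OH)D3 at 100 nM, or 0.1% ethanol as the vehicle (EtOH), for 24 h in medium with charcoal-treated serum. Each of the 10 conditions had 1 library, so no condition had a replicate. The submitters mention triplicates, and the sources used here do not say whether cultures were pooled. Neither the number of independently made cell populations nor the knockdown sequence is given, so an effect of the VDR and other differences between the cells cannot be told apart.

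Expression is given as FPKM, a fragment number corrected for the length of the gene and the size of the library. The FPKM of a library summed to between 577696 and 651658, with 12894 to 13268 entries at 1 FPKM or more, and the depth in reads is unknown. VDR mRNA was 12.0 to 14.8 FPKM in the libraries labelled VDR-KD, against 5.54 to 9.63 FPKM in VDR-WT, so the mRNA goes against the label and the directions below follow the labels. CYP24A1, which encodes the enzyme that inactivates vitamin D hormone, was 77.3 FPKM in VDR-KD and 56.8 in VDR-WT with 1,25(OH)2D3 and at most 0.505 FPKM in the other 8 libraries. Of 8 melanocytic markers, 7 had at least 1 FPKM in all 10 libraries, and TYRP1 lay between 0.293 and 1.49 FPKM. Of 5 macrophage and leukocyte markers with an entry of their own, PTPRC, CD14, CSF1R and ITGAM had at most 0.0505, 0.528, 0.67 and 0.56 FPKM, and LYZ had 1.46 to 3.92 FPKM. Summed, these 5 were 3.31 to 5.26 FPKM in VDR-KD and 2.11 to 3.13 in VDR-WT. Of 5 fibroblast markers with an entry of their own, LUM had 70.8 to 130.3 FPKM, DCN 1.27 to 5.55 and PDGFRB 0.42 to 2.15. COL1A1 and COL1A2 had at most 1.24 and 0.426 FPKM. Of 4 keratinocyte markers, KRT10 had 5.49 to 11.7 FPKM, KRT1 at most 0.0428, and KRT5 and KRT14 were listed at 0. The endothelial markers PECAM1, VWF and CDH5 had at most 0.135, 0.533 and 0.486 FPKM.

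Cathepsins are proteases that are made as inactive precursors, sorted to the lysosome and activated at low pH. CTSB, CTSL, CTSK and CTSS encode cysteine proteases, and CTSD encodes an aspartic protease, which cystatins do not inhibit. Cystatins bind the active site of cysteine cathepsins. CST1, CST2, CST3 and CST4 encode secreted type 2 cystatins (cystatins SN, SA, C and S), whereas CSTB encodes stefin B, which stays inside the cell. In melanoma, secreted cathepsins are known for cutting the extracellular matrix, and cystatins oppose this outside the cell.

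The 4 secreted cystatins lie in 1 cluster on the minus strand of chromosome 20. On GRCh38, CST3 spans 23626706 to 23638473, CST4 23685640 to 23689040, CST1 23747553 to 23751268 and CST2 23823769 to 23826731. The coding sequences of these genes, from GENCODE 29 transcripts, were compared because a short read may fit more than 1 of them. Over the whole coding sequence, CST1 is 91.3% identical to CST2, 92.7% to CST4 and 71.8% to CST3. The longest identical run is 152 bases between CST1 and CST4, 87 between CST1 and CST2 and 18 between CST1 and CST3. Of the 377 windows of 50 bases in CST1, 110 also occur in CST4, 38 in CST2 and none in CST3. The sources used here do not say how reads that fit several genes were shared out, so the levels of CST1, CST2 and CST4 are uncertain relative to each other.

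By their mean over the 10 libraries, on the FPKM scale that corrects for gene length, the order was CTSD with 1445 FPKM, CTSB with 280.2, CST3 with 213.5, CTSK with 130.4, CTSL with 127.3, CSTB with 115.8, CST1 with 38.8, CST2 with 16.2, CTSS with 0.86 and CST4 with 0.187. CTSD ranked 34th among all entries. Its value belongs to a merged entry that also holds IFITM10 and a noncoding neighbor and runs on chromosome 11 from 1732410 to 1764573, while CTSD itself lies from 1752752 to 1764573. Between neighbors in this order, the ranges over libraries did not overlap for CTSD and CTSB, CTSB and CST3, CST3 and CTSK, and CST2 and CTSS, and they overlapped for the other 5 pairs. CTSB and CST3 varied least, with a coefficient of variation of 6.3% and 5.47% over the 10 libraries, while CTSL varied by 29.9%, CST1 by 85.9% and CST2 by 83.3%.

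**Figure D1:**
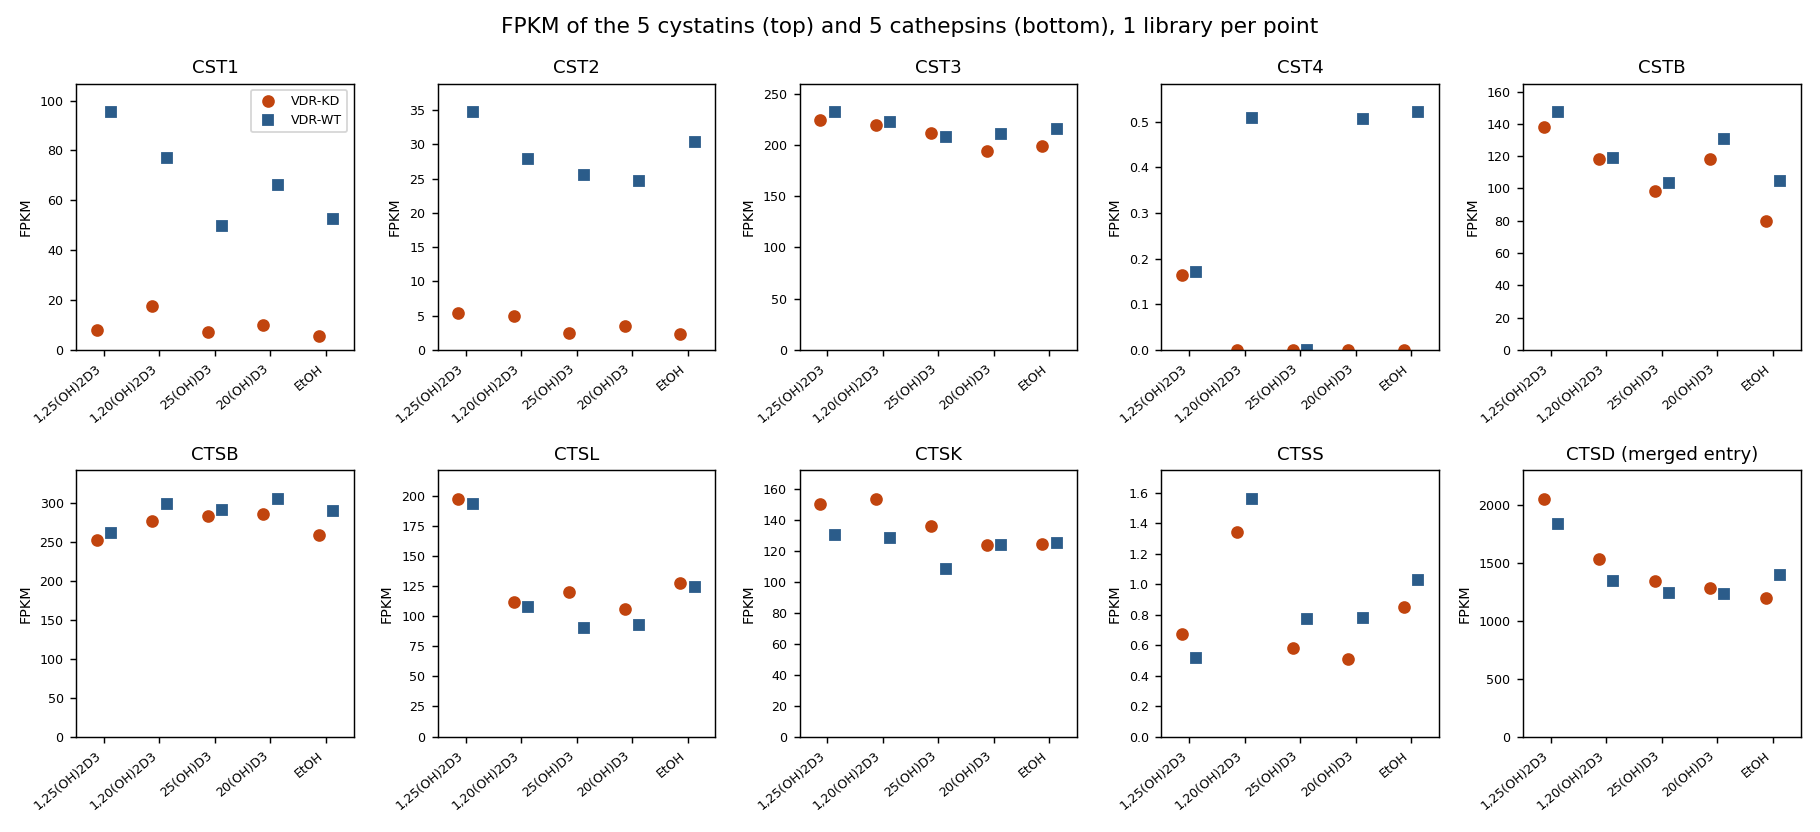
FPKM (linear axes from 0) of the 5 cystatins and 5 cathepsins by treatment, with VDR-KD as circles and VDR-WT as squares, 1 library per point. CST1 and CST2 lie apart by genotype, with at most 17.5 and 5.31 FPKM in VDR-KD and at least 49.6 and 24.7 in VDR-WT, while CTSL is highest in both 1,25(OH)2D3 libraries (197.7 and 193.6 FPKM).

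The contrast of VDR-KD against VDR-WT, which asks how the cells labelled as lacking the receptor differ, is the one on which the set was chosen. It is therefore given as a description without a test. In RNA from a whole culture, fewer cells that express a gene and less RNA per cell cannot be told apart. CST1, which encodes cystatin SN, was 7.81 FPKM in VDR-KD with 1,25(OH)2D3, 17.5 with 1,20(OH)2D3, 7.25 with 25(OH)D3, 10.0 with 20(OH)D3 and 5.54 with ethanol. In VDR-WT the same treatments gave 95.3, 76.8, 49.6, 66.0 and 52.6 FPKM. The highest CST1 value in VDR-KD thus lay under the lowest in VDR-WT. The means were 9.63 ± 4.70 FPKM in VDR-KD and 68.1 ± 18.7 in VDR-WT (SD, n = 5 treatments each), 7.07-fold lower in VDR-KD. The 5 matched log2 differences of FPKM plus 0.1 averaged -2.88 and ran between -3.59 with 1,25(OH)2D3 and -2.12 with 1,20(OH)2D3.

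CST2, which encodes cystatin SA, was 5.31 FPKM in VDR-KD with 1,25(OH)2D3, 4.90 with 1,20(OH)2D3, 2.41 with 25(OH)D3, 3.41 with 20(OH)D3 and 2.33 with ethanol. In VDR-WT the values were 34.7, 27.9, 25.6, 24.7 and 30.4 FPKM in the same order of treatments. Again all 5 values of VDR-KD lay below all 5 of VDR-WT. The means were 3.67 ± 1.38 FPKM in VDR-KD and 28.7 ± 4.03 in VDR-WT (SD, n = 5 each), 7.8-fold lower in VDR-KD, and the matched log2 differences averaged -3.0 ± 0.485 (SD, n = 5). CST1 held 1.47 to 3.58 times the FPKM of CST2 in VDR-KD and 1.73 to 2.75 times in VDR-WT. Both genes were thus lower in VDR-KD by a like factor.

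CST4, which encodes cystatin S, was under the limit for testing. It was listed at 0 in 4 of 5 VDR-KD libraries and at 0.165 FPKM in the other one, with 1,25(OH)2D3. In VDR-WT it was listed at 0 with 25(OH)D3, at 0.171 FPKM with 1,25(OH)2D3 and at 0.505 to 0.521 FPKM with 1,20(OH)2D3, 20(OH)D3 and ethanol. At this level, and with 152 identical coding bases in CST1, no difference is read from CST4.

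CST3, which encodes cystatin C, the main cystatin of body fluids, had 193.5 to 223.9 FPKM in VDR-KD and 207.3 to 231.8 in VDR-WT. Its ranges overlapped, and its mean log2 difference was -0.06 ± 0.0651 (SD, n = 5). CSTB, the intracellular inhibitor, had 79.8 to 138.2 FPKM in VDR-KD and 103.6 to 147.3 in VDR-WT. It was lower in VDR-KD in 5 of 5 treatments, with a mean log2 difference of -0.14 and the widest gap with ethanol (-0.39), and the ranges overlapped as well. The drop of CST1 and CST2 in VDR-KD was therefore not seen in CST3 or CSTB, at least not in this size. These were the other 2 cystatins of the set above the limit for testing. CST7, a cystatin outside the set, is given below.

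The cathepsins differed little by genotype. CTSB, an abundant lysosomal protease, had 251.9 to 285.2 FPKM in VDR-KD and 261.8 to 305.2 in VDR-WT and was lower in VDR-KD in 5 of 5 treatments, by -0.09 ± 0.0498 on the log2 scale (SD, n = 5). CTSL was higher in VDR-KD in 5 of 5 treatments, by 0.15 on average, with 0.03 to 0.05 for 1,25(OH)2D3, 1,20(OH)2D3 and ethanol, 0.20 for 20(OH)D3 and 0.41 for 25(OH)D3. CTSK, best known as the collagenase of osteoclasts, had 123.7 to 153.6 FPKM in VDR-KD and 108.6 to 130.3 in VDR-WT. CTSD averaged 1481 ± 343.3 FPKM in VDR-KD and 1410 ± 249.7 in VDR-WT (SD, n = 5 each). CTSS, known from antigen-presenting cells, was low throughout, with 0.508 to 1.34 FPKM in VDR-KD and 0.516 to 1.56 in VDR-WT.

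Of the 9 members with a mean of at least 0.5 FPKM, CST1 and CST2 had all values in VDR-KD below all in VDR-WT, and 0 had all values above. Over all 14689 such entries, 5.58% (820) lay wholly below and 9.03% (1326) wholly above. Nothing is read from this count, since the set was chosen on it. Summed over the cystatins, the FPKM was 286.4 to 375.4 in VDR-KD and 386.1 to 509.3 in VDR-WT, and that of the cysteine cathepsins 511.6 to 600.6 in VDR-KD and 490.5 to 586.3 in VDR-WT. CST1 and CST2 made up 3.81% to 9.28% of the FPKM of secreted type 2 cystatins in VDR-KD and 26.6% to 35.9% in VDR-WT. CST3 therefore held most of the secreted cystatin FPKM in both genotypes.

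**Figure D2:**
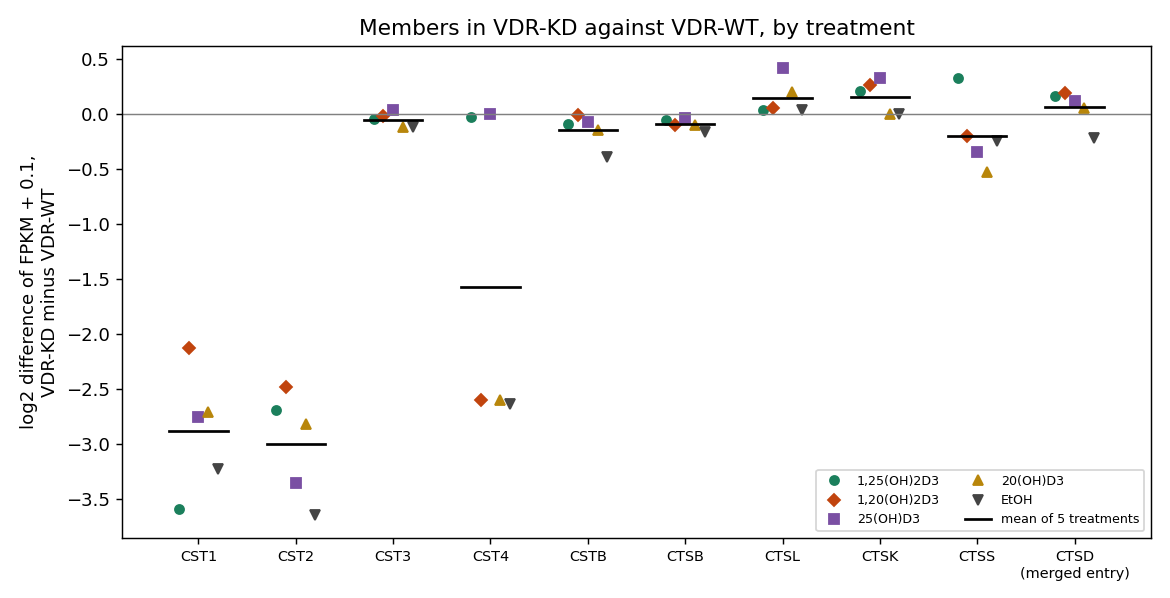
Log2 difference of FPKM plus 0.1, VDR-KD minus VDR-WT, for each member and treatment (points, 1 library on each side), with the mean of 5 treatments as a bar. CST1 lies between -3.59 and -2.13 and CST2 between -3.65 and -2.49 in single treatments (means -2.88 and -3.0), the other tested members lie between -0.20 and 0.16 on average, and CST4 rests on values of at most 0.521 FPKM.

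The entries with the pattern most like CST1 over the 10 libraries, by the root mean square difference of centred log2 values, were CST2 (0.372), CBLN1 (0.442), ADAMTS12 (0.478), a merged entry of MLIP (0.535) and ZNF331 (0.554). For CST2 they were CBLN1 (0.347), CST1 (0.372), AC145110.1 (0.476), ADAMTS12 (0.495) and GABRG3 (0.527). CBLN1, which encodes a secreted organizer of synapses, had 0.175 to 0.71 FPKM in VDR-KD and 2.25 to 6.47 in VDR-WT. ADAMTS12, a secreted metalloprotease, had 0.344 to 1.22 FPKM in VDR-KD and 3.80 to 5.84 in VDR-WT. All 5 entries of either list were lower in VDR-KD, with log2 differences between -3.09 and -2.15, so their likeness follows the genotype for the most part.

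The second question is how each secosteroid changed these genes relative to ethanol. It was tested over both genotypes with limma, on log2(FPKM + 0.1), with genotype as a term and adjustment over all 14689 entries. The contrast is balanced over the genotypes and so does not use the genotype difference for which the set was chosen. The members and tests were nonetheless chosen with earlier results of these data known. All 4 compounds share the ethanol libraries, so their contrasts are not independent. Because no condition has a replicate, the p-values set each mean change against a residual spread. That spread is how far both genotypes depart from a common effect, which may be technical in part. It was also drawn toward a trend over all entries.

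The active hormone 1,25(OH)2D3 raised CTSL, CTSD and CSTB, by 1.5 to 1.56-fold. These were 3 of the 9 tested members, 0 were lower and 6 did not pass, while 1.46% of all entries tested were higher with 1,25(OH)2D3. The median log2 change of the 9 members was 0.59, against -0.0035 over all entries tested.

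CTSL, a potent endopeptidase of the lysosome, was 197.7 FPKM in VDR-KD and 193.6 in VDR-WT with 1,25(OH)2D3, against 128.1 and 124.7 FPKM with ethanol. With the 3 other compounds it was 106.2 to 120.4 FPKM in VDR-KD and 90.4 to 107.9 in VDR-WT. Both 1,25(OH)2D3 libraries stood above the other 8. The log2 change against ethanol was 0.63 in VDR-KD and 0.63 in VDR-WT, and 0.63 in the fit of both (95% interval 0.392 to 0.868, adjusted p = 0.023 from limma). Only the ethanol and 1,25(OH)2D3 libraries enter this log2 change, so leaving out any other library cannot move it. Leaving out 1 of those that enter gave 0.56 to 0.70. The call ended without VDR-KD EtOH, VDR-KD 1,25(OH)2D3, VDR-KD 20(OH)D3, VDR-WT EtOH, VDR-WT 1,25(OH)2D3 or VDR-WT 1,20(OH)2D3 (adjusted p = 0.0518 to 0.192 from limma).

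CTSD, the main aspartic protease of lysosomes, was 2054 FPKM in VDR-KD and 1839 in VDR-WT with 1,25(OH)2D3, against 1197 and 1396 FPKM with ethanol. With the other compounds it had 1281 to 1531 FPKM in VDR-KD and 1232 to 1345 in VDR-WT, again below both 1,25(OH)2D3 libraries. The log2 change was 0.78 in VDR-KD, 0.40 in VDR-WT and 0.59 in both (95% interval 0.36 to 0.815, adjusted p = 0.0248 from limma). IFITM10 shares this entry, so its part in the change cannot be told apart. The call ended when any library but VDR-KD 1,20(OH)2D3 or VDR-WT EtOH was left out (adjusted p = 0.0522 to 0.263 from limma, log2 change 0.41 to 0.76).

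CSTB was 138.2 FPKM in VDR-KD and 147.3 in VDR-WT with 1,25(OH)2D3, against 79.8 and 104.9 FPKM with ethanol. Unlike CTSL, it was also above ethanol with 1,20(OH)2D3 (118.2 FPKM in VDR-KD and 118.9 in VDR-WT) and 20(OH)D3 (118.2 and 130.8 FPKM), while 25(OH)D3 gave 98.2 and 103.6 FPKM. The log2 change with 1,25(OH)2D3 was 0.79 in VDR-KD, 0.49 in VDR-WT and 0.64 in both (95% interval 0.416 to 0.866, adjusted p = 0.0173 from limma). It did not pass with 1,20(OH)2D3 (0.37, adjusted p = 0.254 from limma) or 20(OH)D3 (0.44, adjusted p = 0.152 from limma). The call for 1,25(OH)2D3 ended without VDR-KD EtOH, VDR-KD 1,25(OH)2D3 or VDR-WT 1,25(OH)2D3 (adjusted p = 0.112 to 0.19 from limma, log2 change 0.48 to 0.80 over all left-out libraries).

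The 3 calls for 1,25(OH)2D3 also ended in a fit without the genotype term, without a filter on level or without a variance trend. By construction, these fits leave the log2 change with 1,25(OH)2D3 as it is. Heat shock mRNAs moved with this treatment. HSPA1A, an inducible chaperone of the HSP70 family, was 9.57 FPKM in VDR-KD and 6.65 in VDR-WT with 1,25(OH)2D3, against 123.0 and 42.2 FPKM with ethanol, and HSPA6 was 0.72 and 0.176 FPKM, against 32.3 and 9.37 FPKM. HSPA1A was also low in VDR-KD with 1,20(OH)2D3 (16.6 FPKM) and in VDR-WT with 20(OH)D3 (11.2 FPKM), and CTSL was below ethanol in both of these libraries (111.7 and 92.7 FPKM). CSTB was above ethanol in both (118.2 FPKM, against 79.8, and 130.8 FPKM, against 104.9). CSTB was also above ethanol in VDR-KD with 20(OH)D3 and 25(OH)D3 (118.2 and 98.2 FPKM) and in VDR-WT with 1,20(OH)2D3 (118.9). It was not in VDR-WT with 25(OH)D3 (103.6 FPKM). HSPA1A was 123.5, 165.1, 28.7 and 71.1 FPKM in these libraries, in the order given. CTSD was 1531 FPKM in VDR-KD with 1,20(OH)2D3, against 1197 with ethanol, and 1232 FPKM in VDR-WT with 20(OH)D3, against 1396. The part of the heat shock change in these results was not tested. Without these 2 libraries, a fit chosen after seeing the data, the log2 changes were by construction still 0.63 for CTSL, 0.59 for CTSD and 0.64 for CSTB, and 0 of the 3 passed (adjusted p = 0.106, 0.113 and 0.0813 from limma).

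**Figure D3:**
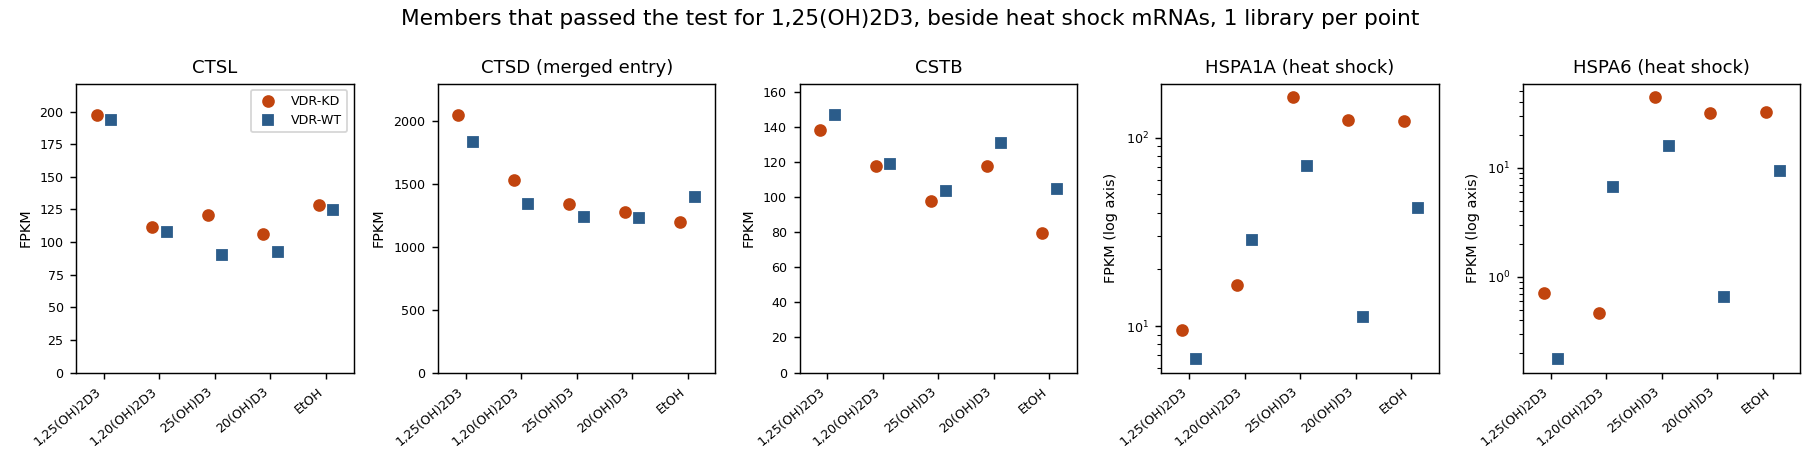
FPKM of CTSL, CTSD and CSTB (linear axes from 0) and of the heat shock genes HSPA1A and HSPA6 (log axes) by treatment, with VDR-KD as circles and VDR-WT as squares, 1 library per point. HSPA1A is low in both 1,25(OH)2D3 libraries (9.57 and 6.65 FPKM), in VDR-KD with 1,20(OH)2D3 (16.6 FPKM) and in VDR-WT with 20(OH)D3 (11.2 FPKM). CTSL is above ethanol in the first pair only, while CSTB is above ethanol in all 4 of these libraries. CSTB is also above ethanol in VDR-KD with 20(OH)D3 and 25(OH)D3, where HSPA1A is 123.5 and 165.1 FPKM, and in VDR-WT with 1,20(OH)2D3 (28.7 FPKM). In VDR-WT with 25(OH)D3 it is not (71.1 FPKM).

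The other members did not pass with 1,25(OH)2D3. CST1 had a log2 change of 0.67 (95% interval 0.0177 to 1.33, adjusted p = 0.291 from limma) and CST2 of 0.67 (0.0728 to 1.27, adjusted p = 0.25 from limma). Both intervals were wide, and the ratios were unequal in the genotypes, with 0.49 in VDR-KD and 0.86 in VDR-WT for CST1, and 1.15 in VDR-KD and 0.19 in VDR-WT for CST2. CST3 had 0.14 (-0.0225 to 0.298), CTSK 0.17 (-0.0582 to 0.394) and CTSB -0.09 (-0.241 to 0.0598). For these 3 abundant genes a rise as large as that of CTSL thus lay outside the interval of the change. For CTSS, at -0.59 (-1.57 to 0.392), it did too, on values of at most 1.56 FPKM.

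None of the 9 members passed with the 3 other compounds. For 1,20(OH)2D3, limma called 0 members and 0.0204% of all entries, with CST1 and CSTB at an unadjusted p under 0.05. Of all 14689 entries tested, 1838 had an unadjusted p under 0.05 for 1,20(OH)2D3. CST1 was 17.5 FPKM in VDR-KD and 76.8 in VDR-WT with 1,20(OH)2D3, against 5.54 and 52.6 FPKM with ethanol, a log2 change of 1.09 (95% interval 0.44 to 1.75, adjusted p = 0.254 from limma). It was 0.62 without VDR-KD 1,20(OH)2D3 and 1.57 without VDR-WT 1,20(OH)2D3. For 25(OH)D3 limma called 0 members and 0% of all entries. CTSL was the 1 member at an unadjusted p under 0.05, with a log2 change of -0.28 (-0.515 to -0.039), beside 1180 of the 14689 entries. For 20(OH)D3 limma also called 0 members and 0% of all entries. With 20(OH)D3, 2 members, CSTB and CTSL, had an unadjusted p under 0.05, beside 2092 of the 14689 entries. CTSL had a log2 change of -0.35 with 20(OH)D3 (-0.587 to -0.111, adjusted p = 0.192 from limma) and of -0.20 with 1,20(OH)2D3 (-0.441 to 0.0347, adjusted p = 0.464 from limma). The 3 compounds thus gave CTSL values below ethanol in both genotypes, but no change that passed the test.

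**Figure D4:**
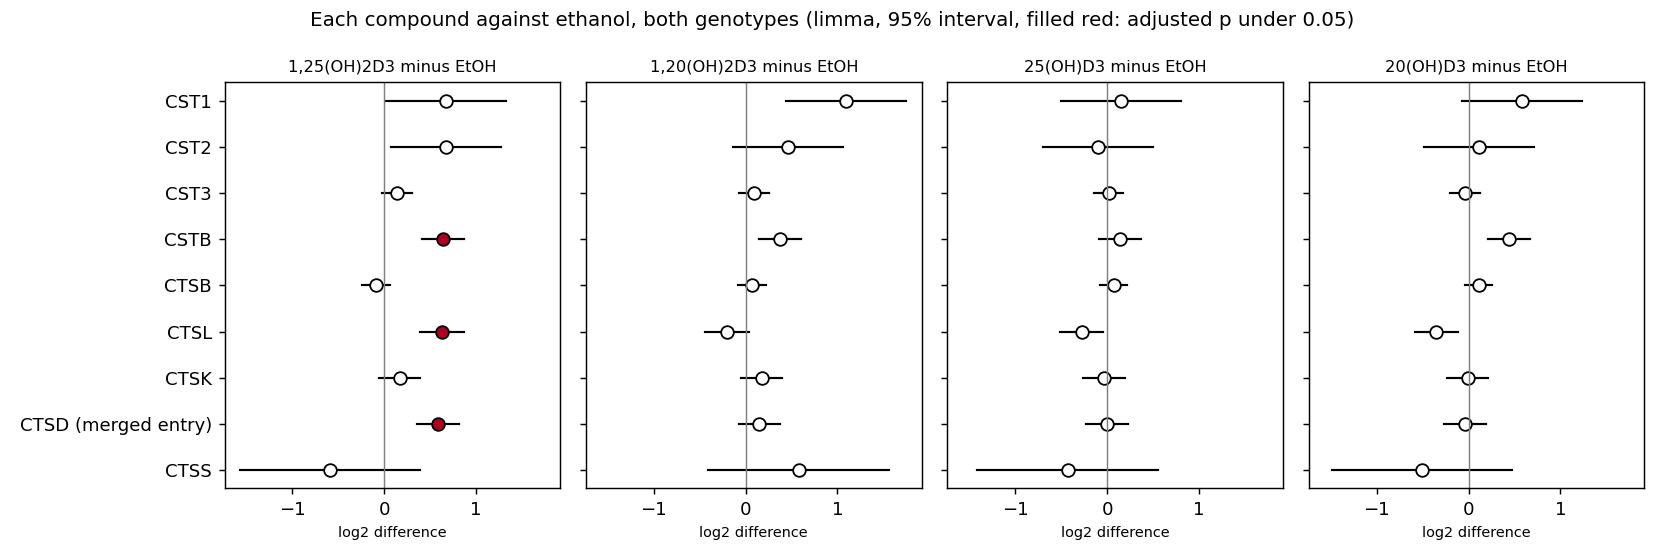
Log2 difference of each compound minus ethanol over both genotypes (points), with the 95% interval from limma as a line, for the 9 tested members. Filled points, for CSTB (0.64), CTSL (0.63) and CTSD (0.59) with 1,25(OH)2D3, had an adjusted p under 0.05.

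The compounds differ from each other by named changes, and they were compared in 4 pairs at the same dose and time. 1,25(OH)2D3 carries a hydroxyl at C1α that 25(OH)D3 lacks, and 1,20(OH)2D3 carries it where 20(OH)D3 does not. Within each of these classes the compounds differ in the place of the side chain hydroxyl. Adjustment was over all entries within a pair, not over the pairs.

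Between 1,25(OH)2D3 and 25(OH)D3, 3 of 9 members were higher with 1,25(OH)2D3 and 0 were lower, while 2.12% of all entries were higher. CTSL averaged 195.7 FPKM with 1,25(OH)2D3, against 105.4 FPKM with 25(OH)D3, a log2 difference of 0.91 (95% interval 0.669 to 1.15, adjusted p = 0.00505 from limma), or 1.88-fold. Of all calls for members this one held most often. It ended in 3 of 18 alternatives, namely without VDR-KD 1,25(OH)2D3, without VDR-WT 1,25(OH)2D3 (adjusted p = 0.0624 to 0.0643 from limma) and without the variance trend. CTSD differed by 0.59 (0.365 to 0.82, adjusted p = 0.0207 from limma), a call lost without either 1,25(OH)2D3 library, VDR-KD 25(OH)D3 or VDR-WT 25(OH)D3 (adjusted p = 0.107 to 0.216 from limma). CSTB differed by 0.50 (0.275 to 0.725, adjusted p = 0.036 from limma), a call lost when any library but those of ethanol was left out (adjusted p = 0.0533 to 0.261 from limma). CST1, CST2, CST3, CTSB, CTSK and CTSS did not pass.

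The same hydroxyl sets 1,20(OH)2D3 apart from 20(OH)D3, and for this pair limma called 0 members and 0.034% of all entries. At an unadjusted p under 0.05 were 1 member, CTSS, and 1074 of the 14689 entries. CTSL differed by 0.15 (95% interval -0.0927 to 0.383), CTSD by 0.19 (-0.0351 to 0.42) and CSTB by -0.07 (-0.294 to 0.157). A difference of the size found for CTSL between 1,25(OH)2D3 and 25(OH)D3 thus lay outside this interval. Whether the effect of the hydroxyl itself differed between the side chains was not tested. Taking both compounds with the C1α hydroxyl against both without it, CTSL was higher by 0.53 (0.358 to 0.694, adjusted p = 0.0126 from limma) and CTSD by 0.39 (0.232 to 0.553, adjusted p = 0.0306 from limma). These were 2 of 9 members, with 0 lower, beside 1.7% of all entries that were higher. For CTSL the call ended when 1 library of 1,25(OH)2D3 or 1,20(OH)2D3 in either genotype, or VDR-KD 20(OH)D3, was left out (adjusted p = 0.0605 to 0.0723 from limma), and for CTSD when any library but those of ethanol was left out (adjusted p = 0.074 to 0.167 from limma).

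In the pair of 1,25(OH)2D3 and 1,20(OH)2D3, which differs in the side chain, 1 of 9 members was higher with 1,25(OH)2D3 and 0 were lower, beside 0.218% of all entries that were higher. This was CTSL, which averaged 195.7 FPKM with 1,25(OH)2D3, against 109.8 FPKM with 1,20(OH)2D3, a log2 difference of 0.83 (95% interval 0.595 to 1.07, adjusted p = 0.022 from limma). The call ended when any library but those of 25(OH)D3 was left out (adjusted p = 0.0588 to 0.218 from limma, log2 difference 0.76 to 0.91). CTSD differed by 0.44 (0.21 to 0.665) and CSTB by 0.27 (0.0415 to 0.492), and neither passed (adjusted p = 0.165 and 0.408 from limma). In the pair of 25(OH)D3 and 20(OH)D3, limma found 0 members and 0% of all entries past the threshold. At an unadjusted p under 0.05 were 1 member, CSTB, and 970 of the 14689 entries. CTSL differed by 0.07 (-0.167 to 0.31) and CTSD by 0.04 (-0.19 to 0.265) between this pair.

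**Figure D5:**
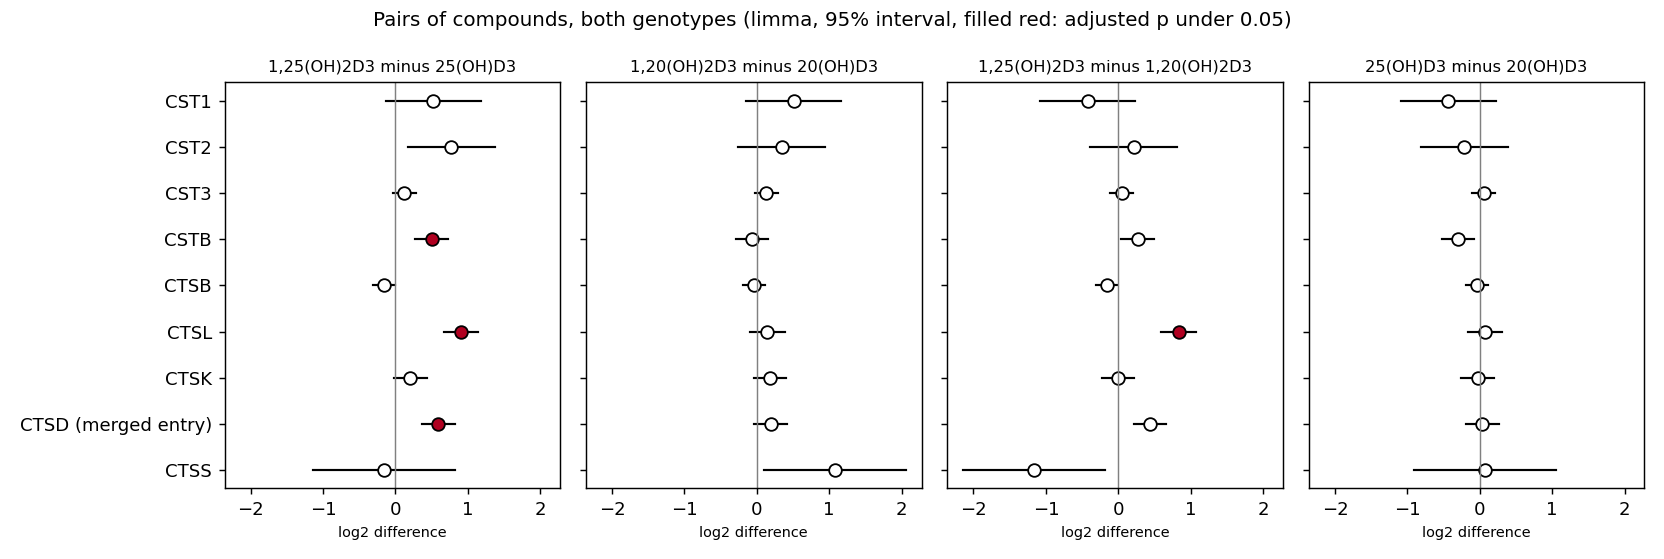
Log2 difference between 2 compounds over both genotypes (points), with the 95% interval from limma as a line, for the 9 tested members in 4 pairs. Filled points had an adjusted p under 0.05, and CTSL is filled in both pairs that set 1,25(OH)2D3 against another compound (0.91 and 0.83), with CTSD (0.59) and CSTB (0.50) filled against 25(OH)D3 only.

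Promoters of CST3, CTSD and CTSL were in the RefSeq table for GRCh38.p14, 3 of the 10 members. Those of CTSL and CTSD, the cathepsins that rose with 1,25(OH)2D3, run from 250 bases before to 50 after the start in RefSeq. This start differs from the outermost one in GENCODE 29, at 1764573 for CTSD and 87725519 for CTSL, so that both windows lie inside the wider GENCODE span. Capitals mark CACGTG, the palindrome bound by MITF and TFEB, and forms of the half-site bound by nuclear receptors, on either strand. The forms searched were AGGTCA, the common one, its close variants GGGTCA and also AGTTCA, as well as the variant GGTTCA.
CTSD, chr11:1763878-1764177, minus strand: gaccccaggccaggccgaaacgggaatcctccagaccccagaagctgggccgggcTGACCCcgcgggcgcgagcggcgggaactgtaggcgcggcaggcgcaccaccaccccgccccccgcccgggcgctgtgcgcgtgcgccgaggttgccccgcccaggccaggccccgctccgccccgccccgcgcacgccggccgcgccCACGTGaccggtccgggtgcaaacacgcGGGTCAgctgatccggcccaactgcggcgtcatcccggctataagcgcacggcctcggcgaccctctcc
CTSL, chr9:87725869-87726168, plus strand: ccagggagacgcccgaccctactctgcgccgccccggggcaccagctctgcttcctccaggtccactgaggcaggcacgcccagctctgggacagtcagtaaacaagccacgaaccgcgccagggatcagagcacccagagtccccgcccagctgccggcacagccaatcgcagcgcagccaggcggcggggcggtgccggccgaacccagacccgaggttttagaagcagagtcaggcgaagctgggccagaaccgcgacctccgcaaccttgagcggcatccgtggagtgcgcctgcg
The CTSD promoter holds 1 CACGTG, at position -47, and 2 half-sites, at -195 and -19, counted from the RefSeq start. CACGTG occurs in 7.26% and a half-site in 38.6% of the 35116 promoters of this length, and the motifs do not overlap here. Neither motif occurs in this window of CTSL or CST3. Of all promoters, 0.074% hold 2 half-sites that are 3 bases apart, and these 3 hold none.

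The wider pathway was read from 7 lists of 75 genes, of which 51 were tested, 18 were under the limit and 6 shared an entry with another coding gene. With 1,25(OH)2D3 against ethanol, 3 of the 51 were higher, 0 were lower and 48 did not pass, while 1.46% of all entries tested were higher. That share is the background for the count in each list. Among other cathepsins and the cathepsin-activating protease LGMN, 1 of 9 was higher. This was CTSZ, which encodes cathepsin Z, a carboxypeptidase, with 134.0 FPKM in VDR-KD and 138.6 in VDR-WT with 1,25(OH)2D3, against 95.8 and 90.4 FPKM with ethanol. Its log2 change was 0.55 (95% interval 0.38 to 0.72, adjusted p = 0.011 from limma). Like CTSL, CTSZ was also higher with 1,25(OH)2D3 than with 25(OH)D3 (0.64, adjusted p = 0.00506 from limma) and than with 1,20(OH)2D3 (0.53, adjusted p = 0.0347 from limma).

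Of 17 other soluble lysosomal proteins, mostly hydrolases, 1 was higher with 1,25(OH)2D3, namely ASAH1, which encodes acid ceramidase (0.46, adjusted p = 0.0424 from limma). ASAH1 was 489.3 FPKM in VDR-KD and 500.7 in VDR-WT with 1,25(OH)2D3, against 350.2 and 371.9 FPKM with ethanol. With 1,20(OH)2D3 it was 463.1 and 467.7 FPKM, a change that did not pass. Of 4 regulators of lysosomal genes, 1 was higher, namely MITF, the transcription factor of the melanocyte lineage. MITF was 268.7 FPKM in VDR-KD and 283.6 in VDR-WT with 1,25(OH)2D3, against 149.8 and 171.7 FPKM with ethanol, a log2 change of 0.78 (95% interval 0.609 to 0.957, adjusted p = 0.00295 from limma). None of 11 membrane proteins and proton pump subunits, of 8 sorting and related factors such as the mannose 6-phosphate receptor M6PR, of 1 other cystatin or of 1 cross-class inhibitor passed in either direction. Of 8 melanocytic markers, 3 were higher, MITF, MLANA (0.58) and S100B (1.33), and their part in the cathepsin result was not tested.

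Between the genotypes, given here as a description, CTSH, a cysteine cathepsin with aminopeptidase activity, stood out among the other cathepsins with 62.1 ± 4.89 FPKM in VDR-KD and 33.3 ± 4.52 in VDR-WT (SD, n = 5 each). Its log2 difference was 0.90, in the direction opposite to CST1 and CST2. CTSV, a close relative of CTSL, and LGMN, which encodes legumain, were also higher in VDR-KD in 5 of 5 treatments without overlap (0.33 and 0.25). CST7, which encodes cystatin F, was the only one of 12 other cystatins above the limit. It had 2.13 ± 0.485 FPKM in VDR-KD and 4.08 ± 1.35 in VDR-WT (SD, n = 5 each). CST7 was lower in VDR-KD in 5 of 5 treatments, with a mean log2 difference of -0.86, and the ranges overlapped. Of the soluble hydrolases, GAA, LIPA and GALNS were higher in VDR-KD without overlap (0.61, 0.55 and 0.54) and MANBA, a mannosidase, was lower (-0.45), while the proton pump subunits ATP6V0D1 (0.46) and ATP6V1A (-0.23) lay apart in opposite directions. In all, 3 of 9 other cathepsins and 5 of the 17 soluble lysosomal proteins were higher in VDR-KD without overlap, and 0 and 2 were lower. Of 11 membrane proteins and proton pump subunits, 1 was higher and 1 lower without overlap. Of 8 sorting factors, 4 regulators, 1 other cystatin and 1 cross-class inhibitor, 0 lay apart in either direction. Over all entries, 9.03% lay wholly above and 5.58% wholly below.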

How the data were processed

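RNA-seq libraries of WM164 cells were compared by the genotype and treatment in their labels. The authors deposited FPKM values, made according to the submitters' notes with STAR 2.7.1a on GRCh38, Cufflinks 2.2.1 and Cuffdiff. The sources used here do not name the gene annotation, the handling of reads that fit several genes or read numbers. FPKM were used as deposited, so no counting interval is given. The label of 1 library reads 2(OH)D3 where its title reads 20(OH)D3, which was taken.

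Entries with a mean of at least 0.5 FPKM (14689) were fitted with limma 3.58.1 in R 4.3.3 (lmFit, eBayes with a trend) on log2 of FPKM plus 0.1, with treatment and genotype as terms and 4 residual degrees of freedom. The added constant understates changes of low genes. Benjamini-Hochberg adjustment was over all entries and 0.05 was the threshold. VDR-KD against VDR-WT was described without a test. The fit was also run on simulated data with independent noise and no genotype effect, unlike these data. That run does not show how far the calls here hold. Descriptions used Python 3.11.15, coordinates GENCODE 29, promoters RefSeq.

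The members, lists and tests were chosen with earlier results of these data known. The rule for named genes took all members, of each list every entry that passed a test and up to 4 with the largest difference between the genotypes, and the 5 entries most like CST1 and CST2. Not all of those 4 per list are printed. Left out were, among others, CD63 (log2 difference -0.43, VDR-KD minus VDR-WT), NPC1 (0.32), TFEB (0.57), DCN (-1.20) and TYR (-0.49). Of the melanocytic markers, 4 were higher with 1,25(OH)2D3 than with 25(OH)D3, and 4 with the C1α hydroxyl than without it. These markers were not all named. Alternatives changed the constant (1), the filter (none, 1 FPKM), the scaling, the trend, the genotype term and the libraries.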

Additional observations from a re-analysis of the deposited data

Results flagged for a closer look

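For 10 of the 36 pairs of member and compound, the log2 ratio to ethanol had opposite signs in VDR-KD and VDR-WT. Each side is 1 library against 1 library, so the difference between the genotypes was not tested, and the 4 compounds of a genotype share their ethanol library. In all 10 the ratio was above 0 in VDR-KD and below 0 in VDR-WT. CST2 held the 2 widest gaps of the 10, with 1.04 in VDR-KD and -0.12 in VDR-WT for 1,20(OH)2D3 (a difference of 1.16) and 0.53 in VDR-KD and -0.30 in VDR-WT for 20(OH)D3 (0.83). CTSD differed by 0.41 with 1,20(OH)2D3 (0.35 in VDR-KD and -0.05 in VDR-WT), by 0.34 with 25(OH)D3 and by 0.28 with 20(OH)D3. With 25(OH)D3 the difference was 0.47 for CST1, 0.33 for CTSK, 0.32 for CSTB, 0.30 for CST2 and 0.15 for CST3. With 1,25(OH)2D3 all 9 members had the same sign in both genotypes.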

How the results depend on the processing

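There were 43 results and 653 alternative values. Log2 changes were followed for all calls of members, for 1,25(OH)2D3 against ethanol and, for CST1, CST2 and CTSL, for 1,20(OH)2D3 against ethanol. None of these reversed its direction, and the other log2 changes of members were not checked. Many could not move, since the filter, the trend, the genotype term and libraries outside a contrast leave its log2 change as it is. Counts and differences between the genotypes were not labelled for a reversal. In 481 of these values the result was labelled the same, and in 172 a call was lost or a count fell by over 1.5 times. Counts of 0 and changes that did not pass could not be lost. For differences between the genotypes, the same meant within the SD of the main result. The 481 therefore do not measure how stable the calls are. Each call for a member was lost in 3 to 12 of 18 alternatives. Adding 1 in place of 0.1, scaling by the median of ratios or the upper quartile and a filter at 1 FPKM kept every call for members. Without a filter on level, members called higher numbered 0 for 1,25(OH)2D3 against ethanol, 0 against 1,20(OH)2D3, 1 against 25(OH)D3 and 0 for the C1α hydroxyl, where the main numbers are 3, 1, 3 and 2. Without a trend they numbered 0 in all 4 contrasts. Without the genotype term, and likewise without VDR-KD 1,20(OH)2D3 and VDR-WT 20(OH)D3 (chosen after seeing the data), they numbered 0, 0, 1 and 0. Leaving out single libraries gave 0 to 3, 0 to 1, 0 to 3 and 0 to 2. Entries called higher in all fell likewise, for 1,25(OH)2D3 against ethanol to 129 (215 in the main result) without a filter, 41 without a trend, 32 without the genotype term, 62 without those 2 libraries and 24 to 164 without single libraries. For the other 3 contrasts in the order above they fell to 6, 169 and 91 (32, 311 and 249) without a filter, 3, 72 and 41 without a trend, 5, 41 and 28 without the genotype term, 1, 102 and 4 without those 2 libraries, and 2 to 21, 24 to 258 and 42 to 177 without single libraries. Fits without a library have fewer samples, and a lone library of a treatment is assumed to vary like the others. The cause of the other losses was not tested. The titles number the treatments alike in both genotypes, and the genotype term already compares treatments within a genotype. Each condition has 1 library, so no replicate number is left to block on beyond the genotype. CTSS could not be fitted at a filter of 1 FPKM. The mean differences between the genotypes stayed at -3.07 to -2.70 for CST1 and -3.13 to -2.71 for CST2 under other constants, scalings and left-out treatment pairs.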

Other observations

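Over the 10 libraries, the entries most like CTSL in pattern, by the root mean square difference of centred log2 values and chosen after the values were seen, were LONRF3 (0.113), RELT (0.139), FUCA1 (0.139), RP11-809N8.2 (0.148), CCDC121 (0.154) and CTSZ (0.156). FUCA1 encodes the lysosomal fucosidase and had 16.2 to 35.1 FPKM in VDR-KD and 15.6 to 32.8 FPKM in VDR-WT. For CSTB the nearest entry was PGK1 (0.0634), which encodes a glycolytic kinase, and for CTSD it was PTPN1 (0.0736), which encodes a tyrosine phosphatase.

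CTSG, which encodes a serine protease known from neutrophils, had 7.22 to 15.7 FPKM in VDR-KD and 6.10 to 10.3 FPKM in VDR-WT, while PTPRC, the common leukocyte marker, had at most 0.0505 FPKM. CTSG was chosen after its values were seen.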
